A study of Mus musculus with 12 samples.

Results

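The nuclear-encoded subunits of oxidative phosphorylation (OXPHOS) were followed in the livers of fed and fasted mice. They were chosen by gene symbol and a minimum of counts. The symbols were the Ndufa, Ndufb, Ndufc, Ndufs and Ndufv genes for complex I and Sdha to Sdhd for complex II. For complex III they were the Uqcr genes and Cyc1. For complex IV they were the Cox4i, Cox5, Cox6, Cox7 and Cox8 genes, and for complex V the Atp5 genes. Of 48795 genes in the deposited table, 100 carried such a symbol. Removing 7 Ndufaf assembly factors, 7 pseudogenes (symbols containing -ps) and 3 genes with fewer than 10 counts summed over all mice left 83 genes. Of these, 38 belonged to complex I, 4 to complex II, 9 to complex III, 15 to complex IV and 17 to complex V. The genes just inside that minimum were Cox6a2 (14 counts) and Cox4i2 (16 counts), and those just outside were Cox8b (6 counts), Cox8c (0 counts) and Cox7b2 (0 counts).

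RNA was sequenced from whole liver of 12 female mice aged 4 months, kept on normal chow, in 4 groups of 3. Of the mice labelled Nts+/+, numbers 254, 257 and 323 ate ad libitum and 265, 282 and 322 had no food for 22 h. Of those labelled Nts-/-, numbers 277, 303 and 319 ate ad libitum and 284, 290 and 295 had no food for 22 h. Neurotensin (NTS) is a gut hormone released in response to fat, and the Nts-/- label stands for its knockout in the whole body. The mice were littermates, and the fed mice are the baseline for each fasting response below.

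The OXPHOS complexes sit in the inner mitochondrial membrane. Complexes I and II pass electrons from NADH and succinate to coenzyme Q, complex III passes them on to cytochrome c, and complex IV passes them to oxygen. Complexes I, III and IV pump protons, and complex V (ATP synthase) uses the proton gradient to make ATP. Some subunits are coded by mitochondrial DNA, and the remaining ones, studied here, are coded in the nucleus. In fasted liver, oxidation of fatty acids feeds electrons to the chain.

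The targeted gene went against the genotype labels. Nts had 0 counts in all 6 libraries labelled Nts+/+ and between 4 and 46 counts in all 6 labelled Nts-/- (mean 22.5). The genotypes are therefore given as the labels of the libraries (WT for Nts+/+ and KO for Nts-/-), and every direction drawn between genotypes rests on those labels. Libraries held between 21999647 and 45273069 counts. The hepatocyte markers Alb, Apoa1, Ttr, Serpina1a, Cps1 and Hnf4a summed to between 106700 and 139117 CPM (counts scaled to a common library total) in every library. Alb made up most of that sum. With fasting, Apoa1 rose (log2 fold change 0.73 in WT and 1.00 in KO livers) and Ttr fell (-0.63 and -0.90). Of 10 genes known to be induced in fasted liver, 5 rose in WT and 7 in KO livers, and of 10 known to be lowered, 8 and 9 fell.

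Levels are given as CPM after TMM normalization (a scaling factor per library), mean ± SD of 3 mice. A gene rose or fell where edgeR's quasi-likelihood test gave a Benjamini-Hochberg adjusted p under 0.05 over the 13812 genes with enough counts to test. Of the 83 subunit genes, 81 could be tested and Cox4i2 and Cox6a2 could not. Fold changes are on the log2 scale, fasted against fed, with their standard error (SE). In RNA of whole liver, fewer cells of a type and less RNA per cell cannot be told apart. P-values measure the spread between these mice.

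Fasting shifted single subunit genes in WT livers and left the set as a whole near 0. In WT livers, 3 of 81 subunit genes rose (Uqcrfs1, Cox6b2 and Atp5s) and 4 fell (Ndufa1, Ndufa3, Ndufa6 and Cox7a1). Of all tested genes, 8.91% rose and 9.19% fell in WT livers. The median log2 fold change of the subunit genes was 0.02, beside -0.003 for all tested genes, and 44 of 81 lay above 0. In KO livers, 6 of 81 rose (Ndufa8, Uqcr10, Cox6b2, Cox7a2l, Atp5g3 and Atp5s) and 2 fell (Ndufa4l2 and Cox7a1), where 7.7% of all tested genes rose and 9.14% fell. The median of the subunit genes in KO livers was 0.31 (1.24-fold), beside -0.01 for all tested genes, and 77 of 81 lay above 0, beside 48.9% of all tested genes. The shares of subunit genes past the threshold in either direction, 8.64% in WT and 9.88% in KO livers, were below those of all tested genes, 18.1% and 16.8%.

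These counts rested on few mice. Leaving out 1 WT mouse at a time gave between 0 and 8 genes past the threshold in WT livers, with 0 without mouse 254, 257 or 282 and 3 without mouse 322. In KO livers it gave between 3 and 33, with 33 (32 higher and 1 lower) without mouse 319, 3 without mouse 277 or 295, 4 without mouse 303 and 5 without mouse 284. The share of all tested genes past the threshold moved as well. In WT livers it was 18.1% with all mice, and 9.46%, 11.4%, 8.70% and 15.7% without mouse 254, 257, 282 and 322. In KO livers it was 16.8% with all mice and 18.7% without mouse 319. It was 9.68%, 12.3%, 11.4% and 10.8% without mouse 277, 295, 303 and 284. Mouse 319 was the KO fed mouse with the highest subunit level. The median of the subunit genes without 1 mouse ran from -0.01 to 0.10 in WT and from 0.21 (mouse 277) to 0.43 (mouse 319) in KO livers. Removing the trend of each library with transcript length turned the 3 higher and 4 lower genes of WT livers into 6 higher and 1 lower, and gave the same 6 higher and 2 lower counts in KO livers. The share of all tested genes past the threshold was then 19.2% in WT and 18.5% in KO livers.

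**Figure D1:**
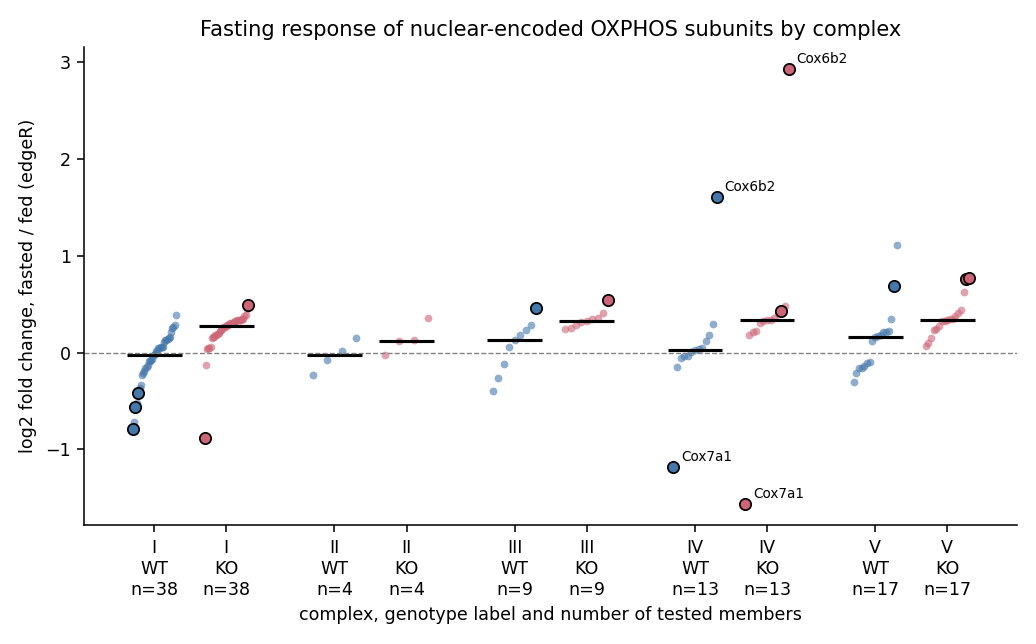
Log2 fold change, fasted against fed, of each tested subunit gene by complex, with livers labelled WT in blue and KO in red. Black lines are medians and outlined points passed an adjusted p of 0.05. The medians of WT livers lie between -0.03 (complex II) and 0.17 (complex V), and those of KO livers between 0.13 (complex II) and 0.34 (complexes IV and V).

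By complex, the medians of KO livers lay above 0 in each, and lowest in complex II. In KO livers, the median was 0.28 in complex I, 0.13 in complex II, 0.32 in complex III, 0.34 in complex IV and 0.34 in complex V. All 9 genes of complex III and all 17 of complex V lay above 0 in KO livers, as did 36 of 38 in complex I, 3 of 4 in complex II and 12 of 13 in complex IV. In WT livers, the medians were -0.02, -0.03, 0.13, 0.03 and 0.17 in the same order, and 18 of 38, 2 of 4, 6 of 9, 8 of 13 and 10 of 17 lay above 0. The standard error of a single gene had a median of 0.15. At an unadjusted p under 0.05 there were 15 subunit genes in WT (18.5%) and 33 in KO livers (40.7%), beside 32.5% and 31.7% of all tested genes.

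The level of the whole set varied more among KO fed mice than among WT fed mice. The set's level in a mouse is the mean over the 81 genes of log2 CPM after centring each gene on the 12 mice, and no test was made on it. WT fed mice lay at 0.01, -0.01 and -0.05, and WT fasted mice at 0.10, -0.01 and -0.15 (mice 265, 282 and 322). KO fed mice lay at -0.31, -0.18 and 0.11 (mice 277, 303 and 319), and KO fasted mice at 0.22, 0.03 and 0.25 (mice 284, 290 and 295). The fasted and fed KO groups overlapped through mouse 319, which lay above KO fasted mouse 290. Complex IV ran from -0.42 (mouse 277) to 0.14 (mouse 319) among KO fed mice, while all 3 WT fed mice lay at -0.01.

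**Figure D2:**
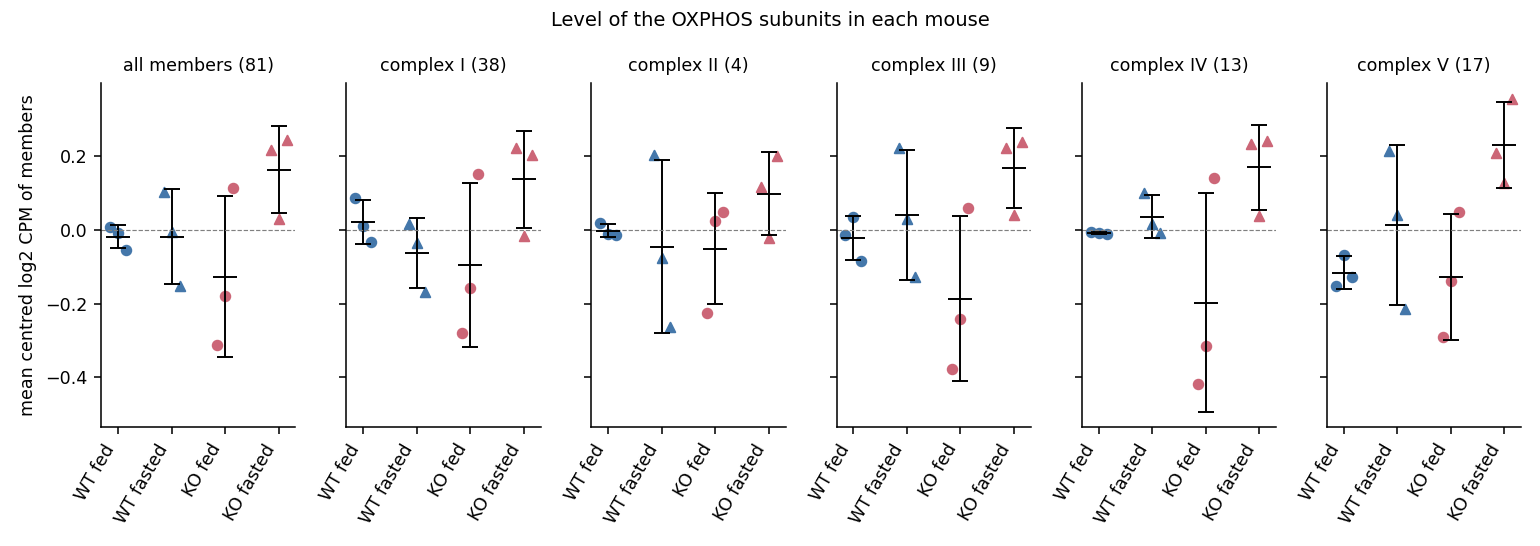
Mean centred log2 CPM of all 81 tested subunit genes and of each complex in each mouse (points), with the group mean and SD (bars). The 3 KO fed mice spread from -0.31 to 0.11 for all genes, and the 3 WT fed mice from -0.05 to 0.01.

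Fold changes were also set beside transcript length. Among all tested genes with transcripts under 1101 bases (the median length of the subunit transcripts), the median log2 fold change was -0.12 in WT (726 of 1242 below 0) and 0.14 in KO livers (495 of 1242 below 0), beside 0.01 and -0.02 for longer ones. The subunit genes under that length had a median of -0.04 in WT and 0.31 in KO livers, and the longer ones 0.12 and 0.31. With the length trend removed from each library, the median of the subunit genes was 0.14 in WT livers (56 of 81 above 0) and 0.24 in KO livers (74 of 81 above 0). With library totals as the only scaling, the median of KO livers was 0.15, where the median of all tested genes was -0.18.

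Cox6b2 and Cox7a1, which each have a general counterpart, had the largest fold changes among the genes past the threshold, and Atp5g3 had the smallest p of complex V in KO livers. The upstream sequences of these genes and of their counterparts are shown to let them be compared, except Atp5g2, whose RefSeq window lies inside the gene as deposited. Cox6b2 and Cox6b1 code for the testis and general forms of a complex IV subunit at its intermembrane face, Cox7a1 and Cox7a2 for the muscle and liver forms of another, and Atp5g1, Atp5g2 and Atp5g3 for the same mature c subunit, the ring of ATP synthase that turns as protons pass. Sequences are from RefSeq (GRCm38.p6), 5′ to 3′, up to 250 bases before the start site and ending before the gene as deposited. Capitals mark a match, on either strand, to a motif searched. They lie at chr7:30626152-30626364 (minus strand) for Cox6b1, chr7:4753095-4753344 (minus strand) for Cox6b2, chr7:30183921-30184143 (plus strand) for Cox7a1, chr9:79759854-79760103 (minus strand) for Cox7a2, chr11:96075671-96075881 (minus strand) for Atp5g1 and chr2:73911327-73911576 (minus strand) for Atp5g3.
Cox6b1: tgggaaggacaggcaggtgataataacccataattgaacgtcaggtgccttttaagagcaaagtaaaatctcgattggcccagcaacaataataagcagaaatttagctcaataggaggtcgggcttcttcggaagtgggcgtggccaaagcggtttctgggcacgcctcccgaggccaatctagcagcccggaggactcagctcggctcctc
Cox6b2: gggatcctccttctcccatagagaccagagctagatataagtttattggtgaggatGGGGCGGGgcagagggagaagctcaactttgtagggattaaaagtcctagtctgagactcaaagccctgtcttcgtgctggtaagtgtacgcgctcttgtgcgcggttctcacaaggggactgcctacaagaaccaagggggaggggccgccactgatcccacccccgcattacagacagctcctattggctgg
Cox7a1: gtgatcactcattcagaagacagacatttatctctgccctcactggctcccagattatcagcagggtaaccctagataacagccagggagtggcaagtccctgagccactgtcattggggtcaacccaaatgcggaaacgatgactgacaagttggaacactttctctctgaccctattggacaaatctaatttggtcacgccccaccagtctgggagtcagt
Cox7a2: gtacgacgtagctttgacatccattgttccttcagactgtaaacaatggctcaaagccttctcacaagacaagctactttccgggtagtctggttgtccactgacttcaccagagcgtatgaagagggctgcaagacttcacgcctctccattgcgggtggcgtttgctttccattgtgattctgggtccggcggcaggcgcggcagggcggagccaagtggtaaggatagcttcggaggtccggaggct
Atp5g1: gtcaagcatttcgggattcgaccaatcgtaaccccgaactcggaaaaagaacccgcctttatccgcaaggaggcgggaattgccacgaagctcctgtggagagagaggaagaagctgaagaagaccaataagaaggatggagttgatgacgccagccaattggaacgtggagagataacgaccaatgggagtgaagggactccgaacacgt
Atp5g3: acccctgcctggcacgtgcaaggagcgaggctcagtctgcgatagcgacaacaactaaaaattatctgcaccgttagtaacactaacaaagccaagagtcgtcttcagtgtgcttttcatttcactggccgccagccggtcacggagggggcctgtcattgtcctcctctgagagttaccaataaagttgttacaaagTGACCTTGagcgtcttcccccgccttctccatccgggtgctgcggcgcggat

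Among the 6 sequences shown, Atp5g3 held CAAGGTCA (the half-site bound by estrogen-related receptors, shown here as its reverse complement) and Cox6b2 held GGGGCGGG (a GC box). No motif searched was in the bases shown for Cox6b1, Cox7a1, Cox7a2 or Atp5g1. The full window of 250 bases of Cox6b1, of which 213 are shown, held CCGGAAG. RefSeq windows of 250 bases were at hand for 68 of the 83 genes. CAAGGTCA was in 3 of the 68 (Atp5g3, Atp5l and Ndufs5; 4.41%) and in 1.51% of 27025 genes. GCGCATG, the core of the NRF1 site, was in 10 of 68 (14.7%) and in 3.68% of all genes. CCGGAAG, an ETS site, was in 12 (17.6%) and in 7.83%. TGACGTCA, the cyclic AMP response element, was in 4 (5.88%) and in 1.77%, GGGGCGGG in 16 (23.5%) and in 16.8%, and AAGATGG, a YY1 site, in 2 (2.94%) and in 5.18%. These matches are a description of letters in the windows and not of binding.

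In complex I, 3 of 38 genes passed the threshold in WT and 2 of 38 in KO livers, and 0 of the 7 core subunit genes in each. Of all tested genes, 18.1% and 16.8% passed. With 7 core genes, these counts cannot set core subunits apart from the others. Ndufs7, next to the site where coenzyme Q is reduced, had 55.2, 58.1 and 51.6 CPM in WT fed and 63.5, 81.4 and 70.7 CPM in WT fasted mice. These groups did not overlap, but the adjusted p was 0.12. Ndufs3 had the third smallest p among complex I genes in KO livers, with a log2 fold change of 0.39 (SE 0.14) and an adjusted p of 0.079. The 10 genes of the N module, which oxidizes NADH, had a median of -0.08 in WT and 0.31 in KO livers.

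Ndufa1, Ndufa3 and Ndufa6, accessory subunits of complex I, fell in WT livers. Ndufa1 (ENSMUSG00000016427, chrX:37187588-37191163 in GRCm38, as are the gene positions below) codes for a membrane-arm subunit needed for assembly. It had 68.6, 72.3 and 50.5 CPM in WT fed and 43.1, 29.3 and 38.6 CPM in WT fasted mice. All WT fasted mice lay below all WT fed mice, with a log2 fold change of -0.79 (SE 0.20, adjusted p = 0.016). In KO livers Ndufa1 had 30.9, 33.3 and 50.8 CPM when fed and 45.5, 39.5 and 43.5 CPM when fasted, which overlapped, with a log2 fold change of 0.16 (SE 0.20, adjusted p = 0.62). The fed level was thus 63.8 ± 12 CPM in WT and 38.3 ± 11 CPM in KO livers, and the fasted levels were 37.0 ± 7.0 and 42.9 ± 3.1 CPM.

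Ndufa3 went from 64.7 ± 12 to 44.0 ± 0.74 CPM in WT livers (log2 fold change -0.56, SE 0.18, adjusted p = 0.043) and from 47.3 ± 11 to 57.0 ± 8.8 CPM in KO livers (0.27, SE 0.18, adjusted p = 0.32). Ndufa6, a subunit of the LYR family, went from 142 ± 21 to 107 ± 4.5 CPM in WT livers (-0.42, SE 0.13, adjusted p = 0.045) and stood at 111 ± 13 and 114 ± 9.1 CPM in KO livers (0.04, SE 0.13). WT fasted mice lay below all WT fed mice for both genes. Ndufa3 overlaps Tfpt in the genome, and the counting was not stated to use strand, so reads of the pair could be split between them. With the length trend removed, neither Ndufa3 nor Ndufa6 passed the threshold in WT livers. Ndufa6 was also lost with RLE scaling, no count filter and only the WT mice fitted, and both genes passed in 1 of 6 fits without 1 mouse. Ndufa1 passed in all 10 alternative settings and in 3 of 6 such fits.

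Ndufa8 (ENSMUSG00000026895, chr2:36036326-36049406), an intermembrane-space accessory subunit, rose in KO livers. It had 50.7, 46.2 and 60.2 CPM in KO fed and 72.5, 69.1 and 80.2 CPM in KO fasted mice (log2 fold change 0.50, SE 0.12, adjusted p = 0.014). The KO groups did not overlap. Its call was lost with library totals only and held in 3 of 6 fits without 1 mouse. In WT livers it stood at 61.6 ± 4.9 and 68.0 ± 3.9 CPM, with a log2 fold change of 0.14 (SE 0.12, adjusted p = 0.46).

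Ndufa4l2, a paralogue of Ndufa4 known as a hypoxia-induced gene, was the least abundant tested subunit gene per kilobase of transcript (1.02 CPM per kilobase, beside 477 for Ndufa4). It had 1.56, 1.41 and 1.57 CPM in KO fed and 1.05, 0.563 and 0.85 CPM in KO fasted mice, a log2 fold change of -0.88 (SE 0.28, adjusted p = 0.048). In WT livers it had 1.18, 0.883 and 0.975 CPM when fed and 0.522, 0.595 and 0.705 CPM when fasted, with a log2 fold change of -0.72 (SE 0.30, adjusted p = 0.11). Fasted and fed mice did not overlap in either genotype. Ndufa4 itself, which now counts as a complex IV subunit, had log2 fold changes of -0.02 in WT and 0.29 in KO livers. Ndufa4l2 overlaps Shmt2 in the genome. Its call in KO livers held in 5 of 10 alternative settings and in 1 of 6 fits without 1 mouse, and was lost with RLE scaling, no count filter, GC content corrected, only the KO mice fitted and DESeq2.

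In complex II, succinate dehydrogenase, 0 of 4 genes passed the threshold in WT and in KO livers. At an unadjusted p under 0.05 there were 0 in WT and 1 in KO livers. Of all tested genes, 32.5% in WT and 31.7% in KO livers had such a p, and 18.1% and 16.8% passed the threshold. Sdha, the flavoprotein that oxidizes succinate, had 488 ± 19 and 415 ± 90 CPM in WT and 445 ± 47 and 438 ± 15 CPM in KO livers, fed and fasted. Sdhb, the iron-sulfur subunit, had log2 fold changes of -0.07 (SE 0.18) and 0.13 (SE 0.18), and Sdhc, a membrane anchor, 0.02 (SE 0.13) and 0.12 (SE 0.13). Sdhd, the other membrane anchor, had 196, 210 and 240 CPM in KO fed and 285, 247 and 298 CPM in KO fasted mice, which did not overlap, with a log2 fold change of 0.36 (SE 0.14, adjusted p = 0.088).

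In complex III, Uqcrfs1 rose in WT livers and Uqcr10 in KO livers. Uqcrfs1 (ENSMUSG00000038462, chr13:30540308-30545362) codes for the Rieske iron-sulfur protein, which takes electrons from reduced coenzyme Q. It had 168, 167 and 204 CPM in WT fed and 267, 244 and 233 CPM in WT fasted mice (log2 fold change 0.47, SE 0.14, adjusted p = 0.035). In KO livers it had 189, 203 and 257 CPM when fed and 281, 259 and 288 CPM when fasted (0.35, SE 0.14, adjusted p = 0.10). The groups did not overlap in either genotype. Uqcr10 (ENSMUSG00000059534, chr11:4701973-4704342), a small subunit, had 59.0, 58.3 and 84.6 CPM in KO fed and 106, 88.3 and 99.4 CPM in KO fasted mice (0.54, SE 0.15, adjusted p = 0.025), again without overlap. In WT livers it stood at 76.2 ± 9.0 and 86.2 ± 3.3 CPM (0.18, SE 0.15). The calls of Uqcrfs1 and Uqcr10 each held in 8 of 10 alternative settings and in 2 of 6 fits without 1 mouse.

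Cyc1, the cytochrome c1 subunit that hands electrons to cytochrome c, had log2 fold changes of 0.24 (SE 0.12) in WT and 0.32 (SE 0.12) in KO livers, with adjusted p of 0.18 and 0.078. Its fasted mice lay above its fed mice in both genotypes. Uqcrc2, a core protein, had 0.28 (SE 0.14) and 0.31 (SE 0.14), and Uqcr11, the smallest subunit, had -0.39 (SE 0.19) and 0.29 (SE 0.19). None of these 3 genes passed the threshold.

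In complex IV, cytochrome c oxidase, 2 isoform genes of low abundance moved in opposite directions in both genotypes. Cox6b2 (ENSMUSG00000051811, chr7:4751792-4753094) had 0.259, 0.258 and 0.399 CPM in WT fed and 0.522, 0.826 and 1.38 CPM in WT fasted mice. In KO livers it had 0.106, 0.109 and 0.242 CPM when fed and 0.962, 0.866 and 1.56 CPM when fasted. All fasted mice lay above all fed mice of their genotype, and Cox6b2 rose by 1.61 (SE 0.45, adjusted p = 0.026) in WT and by 2.93 (SE 0.49, adjusted p = 0.0014) in KO livers on the log2 scale. These levels rest on few reads, from 3 to 6 counts per library in KO fed and from 20 to 66 in KO fasted mice. The general isoform Cox6b1 stood at 152 ± 6.1 and 156 ± 22 CPM in WT and 132 ± 23 and 167 ± 19 CPM in KO livers, with log2 fold changes of 0.03 (SE 0.15) and 0.34 (SE 0.15, adjusted p = 0.14).

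Cox7a1 (ENSMUSG00000074218, chr7:30184144-30186078) fell in both genotypes. It had 2.07, 1.84 and 1.29 CPM in WT fed and 1.14, 0.463 and 0.732 CPM in WT fasted mice, and 1.11, 1.41 and 2.34 CPM in KO fed and 0.412, 0.606 and 0.591 CPM in KO fasted mice. Fasted mice lay below fed mice without overlap in both, with log2 fold changes of -1.18 (SE 0.37, adjusted p = 0.042) and -1.56 (SE 0.39, adjusted p = 0.014). Its liver counterpart Cox7a2 had 0.05 (SE 0.14) and 0.19 (SE 0.14), at 93.2 ± 9.1 CPM in WT fed livers. The call of Cox7a1 in WT livers was lost when the length trend was removed or only the WT mice were fitted, and held in 2 of 6 fits without 1 mouse. The KO call was lost without mouse 284 alone. The WT call of Cox6b2 held in 2 of 6 such fits.

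Some markers of other liver cells moved in the same livers. The 5 markers of sinusoidal endothelium summed to between 123 and 179 CPM in WT fed and 106 and 114 CPM in WT fasted mice, and to between 142 and 156 CPM in KO fed and 103 and 124 CPM in KO fasted mice. The 5 stellate cell markers summed to between 216 and 236 CPM in WT fed and 179 and 204 CPM in WT fasted mice, and to between 179 and 256 CPM and 186 and 198 CPM in KO livers. Of the endothelial markers, Clec4g fell in both genotypes, from 63.1 to 28.4 CPM in WT and from 58.6 to 27.8 CPM in KO livers. Lyve1 rose in WT livers, and Stab2, Pecam1 and Kdr passed the threshold in neither genotype. Of the stellate markers, Lrat fell in both genotypes and Reln and Col1a1 fell in KO livers, while Des and Dcn passed in neither. The 5 Kupffer cell markers summed to between 398 and 467 CPM in WT fed and 195 and 339 CPM in WT fasted mice, and to between 244 and 340 CPM in KO fed and 254 and 388 CPM in KO fasted mice, which overlapped. The part of these cells in the falls of Cox7a1 and Ndufa4l2 was not tested. The 5 skeletal muscle markers summed to at most 0.833 CPM in any mouse, with Acta1 and Myh4 at 0 in all. The 3 brown adipocyte markers summed to between 0.604 and 12.9 CPM in a mouse. Of these, Ucp1, which defines brown fat, was at 0 in all mice, Cidea had 3 counts in total and Elovl3 had 2188.

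Cox7a2l, a Cox7a relative that links complexes III and IV in supercomplexes, rose in KO livers from 96.0 ± 14 to 129 ± 13 CPM (0.43, SE 0.13, adjusted p = 0.034). In WT livers it went from 91.7 ± 6.9 to 113 ± 2.2 CPM (0.30, SE 0.13, adjusted p = 0.12), and fasted mice lay above fed mice in both genotypes. Its call in KO livers held in 6 of 10 alternative settings and in 2 of 6 fits without 1 mouse, and was lost with upper-quartile scaling, library totals only, no count filter and only the KO mice fitted. Its deposited values were not whole in all 12 mice, as when reads are divided between genes. The 7 general partners of the tissue isoforms (Cox4i1, Cox6a1, Cox6b1, Cox7a2, Cox7b, Cox8a and Ndufa4) had a median of 0.01 in WT and 0.34 in KO livers, and 0 of 7 passed the threshold. At an unadjusted p under 0.05 there were 0 in WT and 3 in KO livers. Of all tested genes, 32.5% in WT and 31.7% in KO livers had such a p, and 18.1% and 16.8% passed the threshold. Of the other tissue isoforms, Cox4i2 had 0 to 4 counts and Cox6a2 had 0 to 4 counts in a library, and no fold is given.

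**Figure D3:**
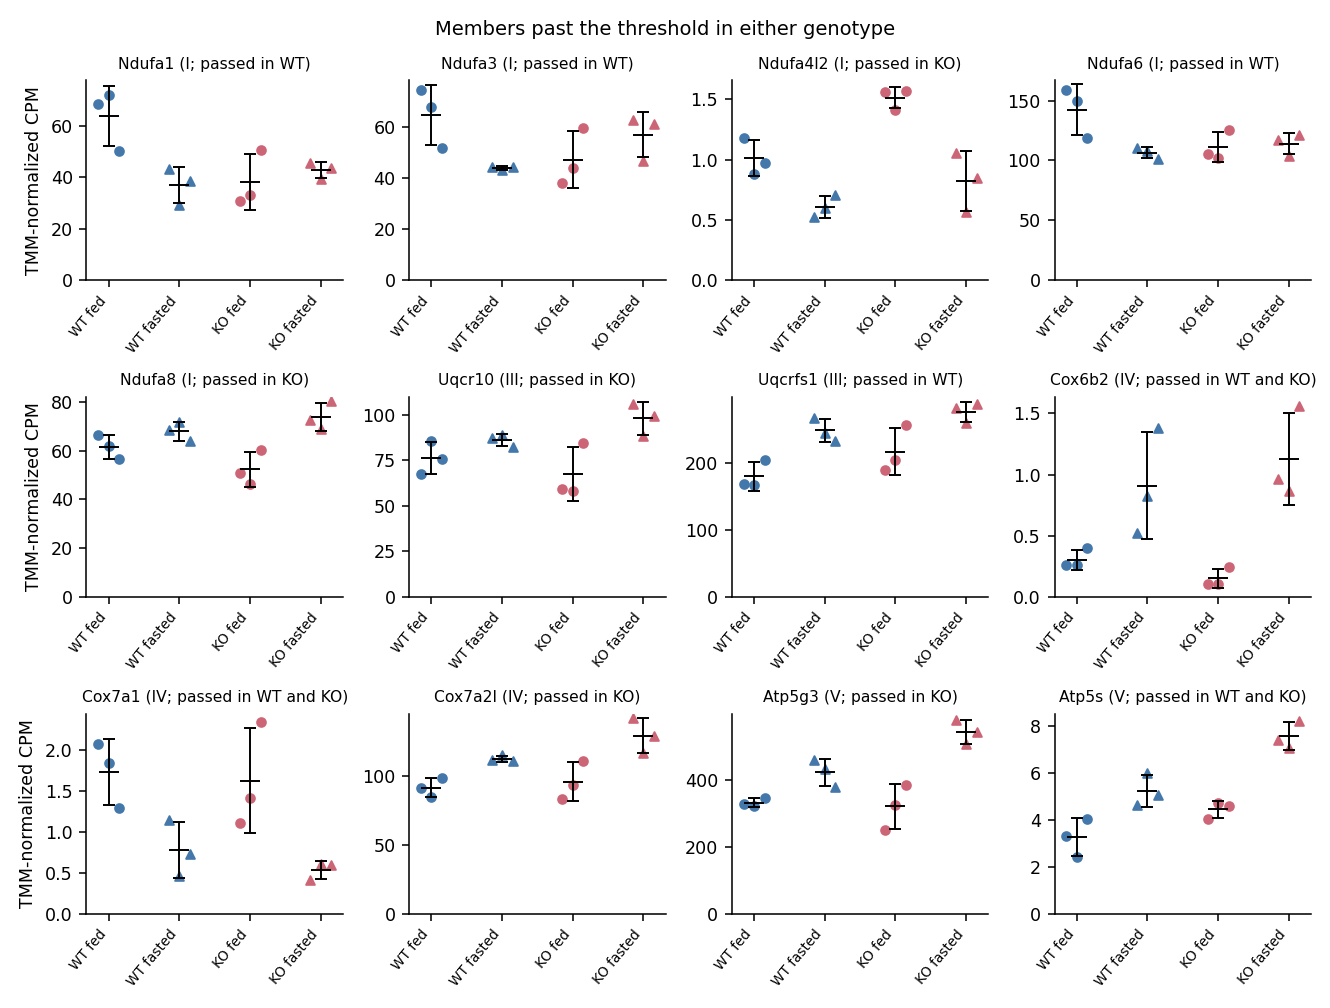
TMM-normalized CPM of the 12 subunit genes past the threshold in either genotype, in each mouse (points) with the group mean and SD (bars), by genotype label and feeding state. Cox6b2 is higher and Cox7a1 lower in all 3 fasted mice than in all 3 fed mice of both genotypes, and for Atp5g3 the 3 KO fasted mice lie between 507 and 579 CPM.

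In complex V, Atp5g3 and Atp5s rose in KO livers and Atp5s also in WT livers. Atp5g3 (ENSMUSG00000018770, chr2:73908447-73911326) had 251, 324 and 385 CPM in KO fed and 579, 507 and 542 CPM in KO fasted mice, a log2 fold change of 0.76 (1.70-fold, SE 0.15, adjusted p = 0.0047). In WT livers it had 326, 321 and 345 CPM when fed and 457, 431 and 378 CPM when fasted, a log2 fold change of 0.35 (SE 0.15, adjusted p = 0.13). Fasted mice lay above fed mice in both genotypes. The rise of Atp5g3 in KO livers passed the threshold in all 10 alternative settings and without each of the 6 KO mice, with a log2 fold change between 0.60 and 0.92, and so did that of Cox6b2 in its 9 settings.

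The other c subunit genes did not pass the threshold. Atp5g1 stood at 157 ± 11 and 135 ± 13 CPM in WT and 148 ± 28 and 165 ± 9.4 CPM in KO livers, and Atp5g2 at 100 ± 15 and 93.4 ± 4.6 CPM and 85.8 ± 12 and 101 ± 12 CPM. The share of Atp5g3 in the summed CPM of the 3 genes went from 56.3% ± 3.5 to 64.8% ± 0.70 in WT livers and from 57.6% ± 1.9 to 67.1% ± 1.3 in KO livers. All fasted mice had a higher share than all fed mice of their genotype. The summed CPM of the 3 genes went from 588 ± 15 to 651 ± 56 in WT and from 554 ± 106 to 809 ± 52 in KO livers. The deposited values of Atp5g1 and Atp5g2 were not whole in 11 and 12 mice, as when reads are divided between genes, and those of Atp5g3 were whole in all mice.

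**Figure D4:**
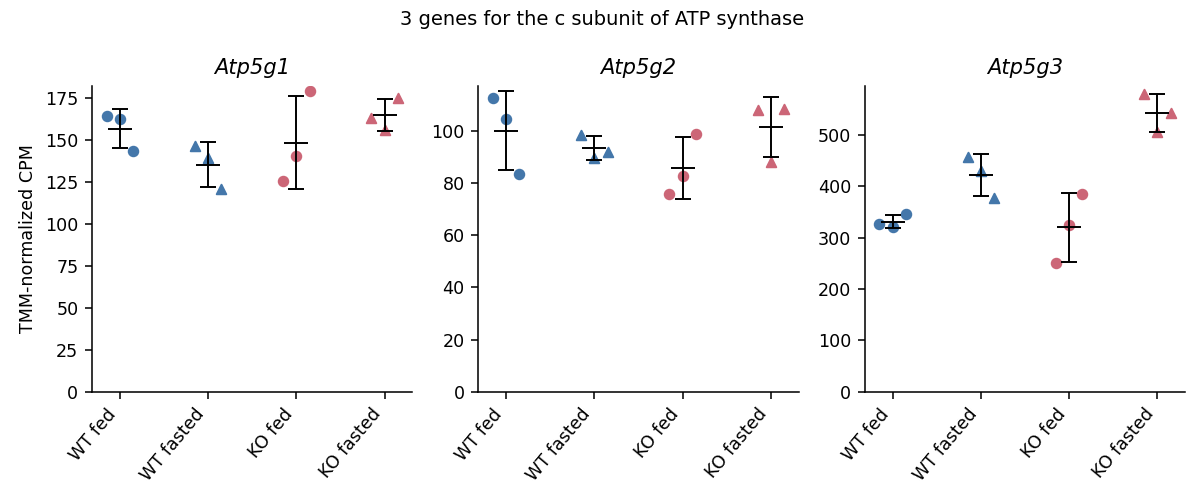
TMM-normalized CPM of the 3 genes for the c subunit of ATP synthase in each mouse (points), with the group mean and SD (bars) and an axis of its own for each gene. Atp5g3 is higher in fasted than in fed mice without overlap in both genotypes, and Atp5g1 and Atp5g2 overlap between fed and fasted KO mice.

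Atp5s (ENSMUSG00000054894, chr12:69724962-69744658) had 3.32, 2.43 and 4.03 CPM in WT fed and 4.65, 5.98 and 5.07 CPM in WT fasted mice (0.69, SE 0.19, adjusted p = 0.026). In KO livers it had 4.05, 4.71 and 4.59 CPM when fed and 7.42, 7.06 and 8.22 CPM when fasted (0.77, SE 0.19, adjusted p = 0.014). Fasted mice lay above fed mice without overlap in both genotypes. Atp5s codes for coupling factor B, which is not a standing part of ATP synthase, and its relative Atp5sl, now known as a complex I assembly factor, had -0.14 and 0.07. Without 1 mouse, the call of Atp5s held in 3 of 6 fits in WT and 4 of 6 in KO livers, and it was lost in WT livers with only the WT mice fitted.

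The 5 genes of the F1 head, which makes ATP, had a median of 0.21 in WT and 0.41 in KO livers, and 0 of 5 passed the threshold. At an unadjusted p under 0.05 there were 0 in WT and 3 in KO livers. Of all tested genes, 32.5% in WT and 31.7% in KO livers had such a p, and 18.1% and 16.8% passed the threshold. Atp5b, the catalytic beta subunit, was the most abundant subunit gene per kilobase of transcript (664 CPM per kilobase), with log2 fold changes of 0.17 (SE 0.14) and 0.33 (SE 0.14, adjusted p = 0.13). Atp5a1, the alpha subunit, had 0.22 (SE 0.16) and 0.41 (SE 0.16, adjusted p = 0.089). Atp5f1, of the stalk that holds the head in place, had 0.19 (SE 0.14) and 0.38 (SE 0.14, adjusted p = 0.083), and its fasted KO mice lay above the fed ones. Atp5k, a membrane subunit of the dimer interface, had -0.31 (SE 0.18) and 0.33 (SE 0.18). Atp5e, the epsilon subunit, ran from 7.50 to 124 CPM over the 12 mice, with an SE of 0.82 in WT and 0.80 in KO livers, and its log2 fold changes of 1.11 and 0.63 did not pass the threshold.

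Across the 81 genes, directions and calls were set side by side for WT and KO livers. The log2 fold change was above 0 in both genotypes for 44 genes, below 0 in both for 4, and below 0 in WT and above 0 in KO livers for 33. Cox6b2, Cox7a1 and Atp5s passed the threshold in both genotypes, 4 genes in WT livers alone, 5 in KO livers alone and 69 in neither. Fasted mice lay above all fed mice for 10 genes in WT and 24 in KO livers, and below for 6 and 2. Among all tested genes these shares were 18.1% above and 17.9% below in WT livers and 17.1% above and 18.1% below in KO livers. There were 7 genes above in both genotypes (Ndufa10, Cyc1, Uqcrfs1, Cox6b2, Cox7a2l, Atp5g3 and Atp5s), 2 below in both (Ndufa4l2 and Cox7a1) and 0 with opposite directions. Shares over all tested genes were not computed for both genotypes at once, so these joint counts and calls have no background here. The contrasts shared no mouse, and across the 81 genes the fold changes had a Pearson r of 0.76 and a Spearman rho of 0.57, beside 0.70 and 0.66 across all tested genes. Genes of a library are not independent, and the points share its depth and scaling.

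The difference between the fasting responses of the genotypes was tested directly. In edgeR's test 0 of 81 subunit genes passed (0% of all tested genes), 13 (16.05%) had an unadjusted p under 0.05, beside 4.80% of all tested genes, and DESeq2 also called 0 of 81. The difference, KO response minus WT response, had a median of 0.25 and was above 0 for 75 of 81 genes, beside 47.1% of all tested genes. Without mouse 277 this median was 0.15, and without mouse 319 it was 0.39. The smallest p were those of Ndufa1 (0.95, SE 0.28), Ndufa3 (0.83, SE 0.25) and Ndufs6 (0.85, SE 0.29), each with an adjusted p of 0.897. Ndufs6, a zinc-binding subunit of the N module, had 64.6, 67.8 and 60.9 CPM in WT fed and 61.2, 35.1 and 38.9 CPM in WT fasted mice, which overlapped, and went from 44.0 ± 11 to 55.3 ± 5.0 CPM in KO livers. For Atp5g3 the difference was 0.41 (SE 0.22, within 2 SE from -0.02 to 0.84), and for Cox6b2 it was 1.32 (SE 0.68, from -0.04 to 2.68). With the length trend removed, the median difference was 0.08, and 62 of 81 genes lay above 0.

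The genotypes were also compared within each feeding state, with the same mice as above. In fasted livers 0 of 81 genes differed between KO and WT (0% of all tested genes, 0 by DESeq2), with a median of 0.15, KO against WT, and 77 of 81 above 0. At an unadjusted p under 0.05 there were 9 (11.1%), beside 4.96% of all tested genes. In fed livers 0 of 81 differed (0% of all tested genes, 0 by DESeq2), with a median of -0.13 and 20 of 81 above 0, and 11 (13.6%) had an unadjusted p under 0.05, beside 6.34% of all tested genes. Of all tested genes, 48.3% lay above 0 in fasted and 51.8% in fed livers. With the length trend removed, the median was 0.05 in fasted livers (51 of 81 above 0). It was then -0.06 in fed livers (28 of 81 above 0). Leaving out KO fed mouse 277 moved the fed median to -0.03 and mouse 319 to -0.22. Leaving out WT fasted mouse 322 moved the fasted median to 0.08.

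Several other genes of the respiratory chain rose or fell in both genotypes. Of 45 assembly factors tested, 6 rose and 1 fell in WT livers and 5 rose and 2 fell in KO livers, with medians of -0.01 and 0.04. That is 15.6% in each genotype, below the 18.1% and 16.8% of all tested genes. The same 4 rose in both genotypes: Coa6 (copper delivery to complex IV, 1.09 in WT and 0.75 in KO livers), Sdhaf1 (iron-sulfur insertion into Sdhb, 0.84 and 0.66), Ndufaf4 (complex I, 0.78 and 0.65) and Ttc19 (complex III, 0.69 and 0.59). Cox15, for heme A synthesis, rose by 0.66 in WT livers, and Sco2, a copper chaperone, by 0.99 in KO livers. Ndufaf2 fell by 0.61 in WT livers, and Ndufaf5 by 0.67 and Bcs1l, which inserts Uqcrfs1 into complex III, by 0.45 in KO livers.

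Enzymes that feed electrons into coenzyme Q changed in both directions, with 2 of 8 higher and 2 lower in WT and 3 higher and 1 lower in KO livers. Of all tested genes, 8.91% rose and 9.19% fell in WT and 7.7% and 9.14% in KO livers. Etfdh, which takes electrons from fatty acid oxidation to coenzyme Q, had 292, 261 and 343 CPM in WT fed and 723, 633 and 538 CPM in WT fasted mice and rose by 1.08 (SE 0.15, adjusted p = 0.00053). In KO livers it rose by 1.16 (SE 0.15, adjusted p = 0.00026). Gpd2, the mitochondrial glycerol 3-phosphate dehydrogenase, rose by 1.56 and 1.25. Sqrdl, which oxidizes sulfide, fell by 0.97 and 0.92. Of 15 genes for coenzyme Q synthesis and cytochrome c, 2 rose and 1 fell in WT and 2 rose and 2 fell in KO livers (beside 18.1% and 16.8% of all tested genes in either direction). Cycs, cytochrome c itself, rose by 0.67 (SE 0.15, adjusted p = 0.0073) and 0.89 (SE 0.15, adjusted p = 0.0013), and Coq8a, a kinase-like protein of coenzyme Q synthesis, fell by 1.05 and 1.31.

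Atpif1, the peptide that inhibits ATP synthase when it runs in reverse, fell in both genotypes. It had 20.4, 17.0 and 14.8 CPM in WT fed and 7.07, 7.24 and 7.24 CPM in WT fasted mice (-1.28, SE 0.15, adjusted p = 0.00018). In KO livers it had 12.3, 15.6 and 14.5 CPM when fed and 8.93, 7.92 and 10.2 CPM when fasted (-0.64, SE 0.15, adjusted p = 0.011). Fasted and fed mice did not overlap. The difference of these responses was 0.63 (SE 0.21, adjusted p = 0.897).

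The 13 subunit genes of the mitochondrial DNA had a median of 0.20 in WT (10 above 0) and 0.50 in KO livers (13 above 0). Of all tested genes, 49.8% in WT and 48.9% in KO livers lay above 0. The SE of a gene of this list had a median of 0.31 in both genotypes, and its level varied between mice, from -0.84 to 0.08 among WT fed mice. In this list, mt-Nd5 rose in both genotypes (0.79, adjusted p = 0.04998, and 0.98, adjusted p = 0.020) and mt-Nd6 in KO livers (1.12, adjusted p = 0.046). Both code for membrane subunits of complex I. The share past the threshold was 7.69% in WT and 15.4% in KO livers, below the 18.1% and 16.8% of all tested genes.

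**Figure D5:**
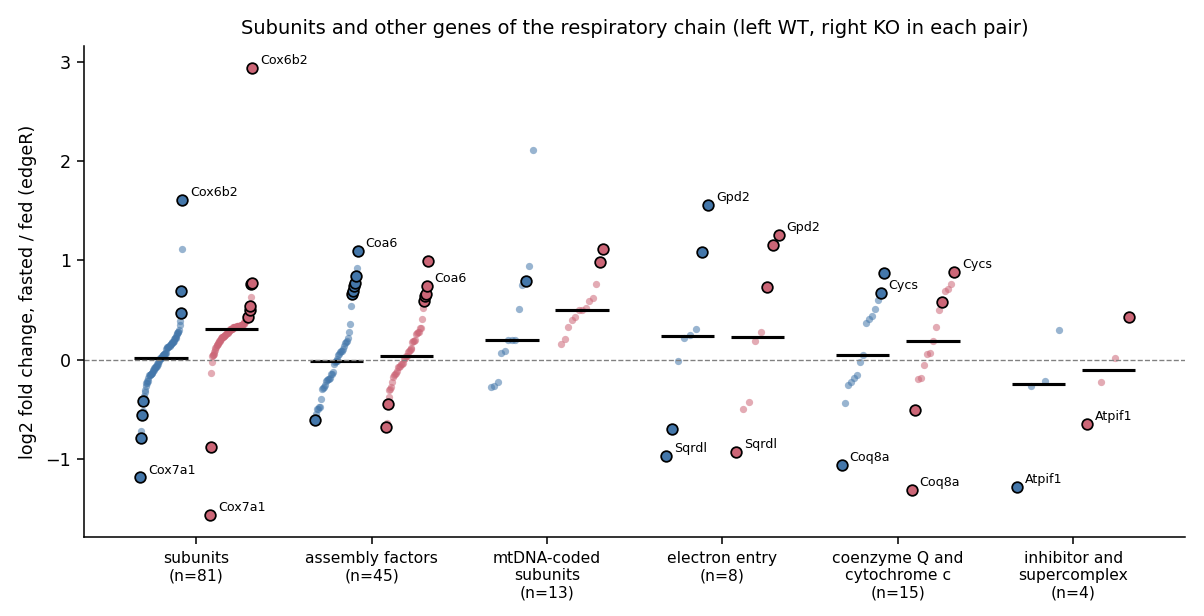
Log2 fold change, fasted against fed, of the tested subunit genes and of other genes of the respiratory chain, with livers labelled WT on the left and KO on the right of each pair. Black lines are medians and outlined points passed an adjusted p of 0.05. Coa6 and Cycs rose and Coq8a, Sqrdl and Atpif1 fell in both genotypes.

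Levels differed more between subunits than between conditions. Per kilobase of the main transcript, the median level over the 12 mice was 74.2 CPM in complex I, 97.7 in complex II, 124 in complex III, 223 in complex IV and 131 in complex V. In WT livers these medians went from 68.3 fed to 70.3 fasted in complex I and from 201 to 218 in complex IV, and in KO livers from 68.0 to 82.0 and from 201 to 253. The least abundant tested genes per kilobase were Ndufa4l2 (1.02), Cox6b2 (1.04), Atp5s (1.89) and Cox7a1 (2.64), and these were 4 of the 12 genes past the threshold in either genotype. Transcript lengths were those of 1 main transcript per gene, which limits comparison between genes.

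Reads of some subunit genes could not be assigned to 1 gene. Of the 83 genes, 25 had a value that was not whole in 1 or more mice and 14 in all 12, and 14 overlapped another gene with over 1% of their counts. Of the 12 genes past the threshold, Cox7a2l belonged to the first kind and Ndufa3 and Ndufa4l2 to the last.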

How the data were processed

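RNA was sequenced from the livers of 12 mice, 3 in each of 4 groups. The authors deposited 1 table of expected counts (estimated reads per gene, not scaled between mice) with GRCm38 positions. The submitters' processing notes name Trimmomatic and RSEM, with no version, and use of strand in counting was not given in the sources used here. Columns of other samples numbered 0. Of the values above 0, 21.6% were not whole, and all were rounded. In R 4.3.3, edgeR 4.0.16 filtered genes (filterByExpr), normalized by TMM and fitted 1 model of all 12 mice with a mean per group (robust quasi-likelihood test, biological coefficient of variation 0.202). The counts of a library limit its precision, since 3 counts equal 0.0663 to 0.136 CPM. Members and lists were chosen with earlier results of these data known. Complexes were assigned by symbol, so Ndufa4 counts with complex I.

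Genes named are up to 3 per complex with the smallest p in each fasting contrast, the 3 with the smallest p in the difference of responses, 2 per other list and contrast, the tissue isoforms, the genes at the count minimum and Nts. The other genes named were chosen after their values were seen (among them Ndufs7, Gpd2, Atp5e, Atp5a1 and Atp5b) or as counterparts of these. Lengths are those of the canonical transcript in GENCODE vM39, and upstream sequences those of RefSeq. Alternatives were RLE and upper-quartile scaling, library totals only, a fit of the compared mice alone, dropping the filter or raising it to 10 counts in each mouse, leaving out genes of the mitochondrial DNA, offsets for gene length or GC content, DESeq2 1.42.0, an adjusted p under 0.10, the list without tissue isoforms, Ndufa4 in complex IV, and leaving out each mouse. The fit was also run on simulated counts drawn with the means and spread of these data, and the outcome is not given here. The sample labels used here give no batch that differs between libraries, and effects of batch were not tested.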

Additional observations from a re-analysis of the deposited data

Results flagged for a closer look

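Nts, the targeted gene, had reads in the libraries labelled as its knockout and none in the others. Transcript from the altered allele cannot be told apart from other sources here. The libraries labelled Nts-/- held a mean of 22.5 counts of Nts, with 46, 40 and 15 in fed and 12, 4 and 18 in fasted mice, and those labelled Nts+/+ held 0. Counts were higher in 6 of 6 libraries labelled Nts-/- than in any labelled Nts+/+.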

How the results depend on the processing

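Of the values recomputed for counts and medians, 282 stayed within the limits set for a change and 21 moved. Of the values for single genes, 456 kept direction and side of the threshold, 69 lost the threshold, 10 gained it and 4 turned. In WT livers, 7 genes became 3 with only the mice compared, where 15.3% of all tested genes passed, and between 0 and 8 without 1 mouse. Without 1 mouse, 8.70% to 17.1% of all tested genes passed in WT livers and 9.68% to 18.7% in KO livers. In KO livers, 8 genes became 5 with library totals only, 5 with only the mice compared and 5 without the tissue isoforms. They became 14 with DESeq2, 17 at an adjusted p under 0.10, and between 3 and 33 without 1 mouse. Of all tested genes in KO livers, 19.9% passed with library totals only, 14.9% with only the mice compared and 20.2% with DESeq2. The share at an adjusted p under 0.10 is not given here. The split of higher and lower genes in KO livers, 6 and 2, was 7 and 1 with GC content corrected, 6 and 1 with RLE scaling and 3 and 2 with library totals only. The share of all tested genes past the threshold was 18.5% with GC content corrected and 17.1% with RLE scaling. Library totals only gave KO medians of 0.15 for all genes, 0.11 for complex I, -0.037 for complex II, 0.16 for complex III and 0.18 for complex V, where the median of all tested genes lay at -0.18 (-0.06 in WT livers). The complex III median in KO livers ran from 0.26 to 0.49 without 1 mouse. Sdhb in WT livers, at -0.07, ran from -0.23 to 0.11 without 1 mouse and turned to 0.015 without mouse 254 and 0.11 without mouse 322. Sdhb and Sdhc in KO livers turned to -0.034 and -0.041 with library totals only. The cause was not tested. No paired analysis was possible because the labels give no litter and the mouse numbers are all different. Low counts limit Cox6b2, Cox7a1 and Ndufa4l2, and 2 genes could not be tested.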
